A study of Mus musculus with 16 samples.

Results

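The nuclear genome encodes most subunits of the mitochondrial respiratory chain, and the levels of these mRNAs were compared in mammary tumors of 2 genotypes, wildtype x PyMT mice and *Resf1* gene trap x PyMT mice. Members were chosen by gene symbol, as the numbered subunits of complexes I to V, with pseudogene symbols ending in -ps left out. The rule found 84 of the 23609 genes in the table, namely 37 of complex I (NADH dehydrogenase), 4 of complex II (succinate dehydrogenase), 9 of complex III (the cytochrome bc1 complex), 17 of complex IV (cytochrome c oxidase) and 17 of complex V (ATP synthase). Of the 84 genes, 83 were annotated as protein-coding, and the exception was *Cox6c2*, a processed pseudogene by annotation. *Ndufa4* was counted with complex I by its name, although its product is known as a subunit of complex IV. Some subunits of ATP synthase carry unrelated older symbols in the annotation, such as *Usmg5*, and were outside the rule.

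All mice carried the polyoma middle T antigen (PyMT), an oncogene expressed in the mammary epithelium from the MMTV promoter. They were F1 hybrids between the gene trap strain, of C57BL/6 background, and FVB mice with the PyMT transgene. Gene trap animals were heterozygous for a lentiviral insertion in the first exon of *Resf1* that makes a fusion of EGFP and Cre and truncates the *Resf1* message, and wildtype animals were their littermates without the insertion. The trap gives reduced rather than absent *Resf1*. The labels describe 8 tumors per genotype as whole mammary tumor tissue, and give no age. Values were matched by name to 5 wildtype and 5 gene trap tumors, each from a different animal.

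Electrons from NADH enter the chain at complex I and those from succinate at complex II. Coenzyme Q carries them to complex III and cytochrome c to complex IV, where oxygen is reduced, and the proton gradient built by complexes I, III and IV drives ATP synthesis by complex V. Mammary tumor cells use this pathway beside glycolysis, and its nuclear genes are known to share the transcription factors NRF1, GABP (of the ETS family), YY1 and the estrogen-related receptors (ERR).

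To show what the control regions of these genes have in common, the 250 bases before the RefSeq start were searched on both strands for 4 sequences that these factors are known to bind. The sequences were GCGCA and GCGC with any 1 base between them for NRF1, CCGGAAG for ETS factors, AAGATGGCG for YY1 and AAGGTCA for ERR. A promoter entry was found for 68 of the 84 members. The NRF1 sequence was found in 12 of these (17.6%), against 3.86% of all 27025 promoters in the table. The ETS sequence was found in 11 members (16.2%, against 7.05% of all promoters), the ERR sequence in 5 (7.35%, against 4.05%) and the YY1 sequence in 0 (against 0.607%). At least 1 of the 4 was found in 22 members (32.4%, against 14.5% of all promoters), and no member had matches of different factors that overlapped. By complex, at least 1 match was found in 10 of 33 promoters of complex I, 2 of 3 of complex II, 2 of 5 of complex III, 2 of 12 of complex IV and 6 of 15 of complex V. Such a match describes the letters in this window only. For each complex 1 promoter is shown, chosen by the most kinds of match, then the most matches and, where these were equal (*Uqcr11* with *Uqcrh* in complex III, *Atp5h* with *Atp5l* in complex V), the higher mean signal. The matches are given as stretches of at most 30 bases, all on the minus strand of GRCm38.p6, written 5′ to 3′ with the matched letters in capitals. A match to the opposite strand reads as CTTCCGG for ETS and TGACCTT for ERR.
*Ndufb4* NRF1, chr16:37654540-37654569: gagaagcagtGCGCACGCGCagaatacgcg
*Ndufb4* NRF1, chr16:37654428-37654457: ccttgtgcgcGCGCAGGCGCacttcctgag
*Ndufb4* NRF1, chr16:37654371-37654400: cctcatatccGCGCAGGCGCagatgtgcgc
*Ndufb4* ERR, chr16:37654407-37654433: cctgagcctgAAGGTCAgactcgagag
*Sdhd* NRF1, chr9:50603909-50603938: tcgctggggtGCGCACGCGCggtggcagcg
*Sdhd* ETS, chr9:50603879-50603905: cgtctcctgcCTTCCGGttcacgcttc
*Uqcrh* ETS, chr4:116075071-116075090: gtatgccgcaCTTCCGGcca
*Cox6a1* NRF1, chr5:115349101-115349130: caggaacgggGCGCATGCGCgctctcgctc
*Cox6a1* NRF1, chr5:115349056-115349085: cggataaagtGCGCAGGCGCtggagttcct
*Cox6a1* ETS, chr5:115348959-115348984: cccatttccgCTTCCGGcgcgccggt
*Atp5l* ETS, chr9:44920938-44920964: cttcaccgatCTTCCGGaccaacatga
*Atp5l* ERR, chr9:44920743-44920765: aggggcagccTGACCTTggaaat
The NRF1 matches of *Ndufb4* began 191, 79 and 22 bases before its start, that of *Sdhd* 79 bases before, and those of *Cox6a1* 162 and 117 bases before. The ETS matches of *Uqcrh*, *Cox6a1* and *Sdhd* began 10, 16 and 46 bases before the start, and that of *Atp5l* 212 bases before.

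The values are estimated counts that the authors had normalized between tumors, here called signal, so that the number of reads per tumor is not known. The column totals were between 31995078 and 42153593, with the highest in gene trap replicate 2. In this tumor the 20 genes with the highest signal took 36.6% of the total, against 21.2% to 29.0% in the other 9 tumors, so results are given with and without it. *Resf1* itself (ENSMUSG00000032712) was at 4215, 4397, 3881, 4487 and 3517 in wildtype replicates 1 to 5 and 4029, 3066, 3686, 3392 and 3409 in gene trap replicates 1 to 5, so the groups overlapped. Its log2 difference was -0.22 ± 0.09 (SE, limma unadjusted p = 0.0313, adjusted p = 0.9997), and an exact two-sided permutation test gave p = 0.0635. Without gene trap replicate 2, which had the lowest value, the difference was -0.17 (limma unadjusted p = 0.0684). The luminal epithelial markers *Epcam*, *Krt8*, *Krt18*, *Krt19*, *Cdh1* and *Elf5* were detected in all 10 tumors, with a summed signal of 77623 to 102596 in wildtype and 82057 to 105116 in gene trap tumors. In bulk tissue, fewer cells of a type and less RNA per cell cannot be told apart.

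No respiratory chain subunit differed between the genotypes at an adjusted p under 0.05. Of the 84 members, 82 had a mean signal of at least 10 and were tested with limma on log2(signal + 1), where a fold change understates that of low genes. The adjusted p was at least 0.9997 for each of them, and of all 21034 genes tested 0.0% passed. At an unadjusted p under 0.05, 0 members had a positive and 0 a negative difference (gene trap minus wildtype), against 1.32% and 0.956% of all genes tested. The smallest unadjusted p of a member was 0.139, for *Ndufab1*. Groups did not overlap for 0 tested members in either direction, against 0.266% of all genes in the higher and 0.261% in the lower direction.

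The differences were small and most had a positive sign. The log2 difference (gene trap minus wildtype) was above 0 for 62 of 82 members, against 51.4% of all genes. Its median was 0.10 over the members, beside 0.00 over all genes, and by complex it was 0.12 for I, -0.02 for II, 0.03 for III, 0.13 for IV and 0.07 for V. The sign rested on 1 tumor. Without gene trap replicate 2 the difference was below 0 for 68 of 82 members, against 49.9% of all genes, with a median of -0.06. The medians were then -0.06 for I, -0.07 for II, -0.07 for III, -0.09 for IV and -0.05 for V, and all 17 members of complex V and all 4 of complex II were below 0. In that comparison 0 members passed at an unadjusted p under 0.05 in either direction, against 1.01% (higher) and 0.884% (lower) of all genes. Groups were again free of overlap for 0 members, against 0.395% of all genes in the higher and 0.338% in the lower direction. A fit that gave each tumor a weight by its spread put 62 of 82 members below 0, with a median of -0.05. Such weights count a tumor that departs from its group for less. This fit is therefore not independent of leaving out gene trap replicate 2.

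**Figure D1:**
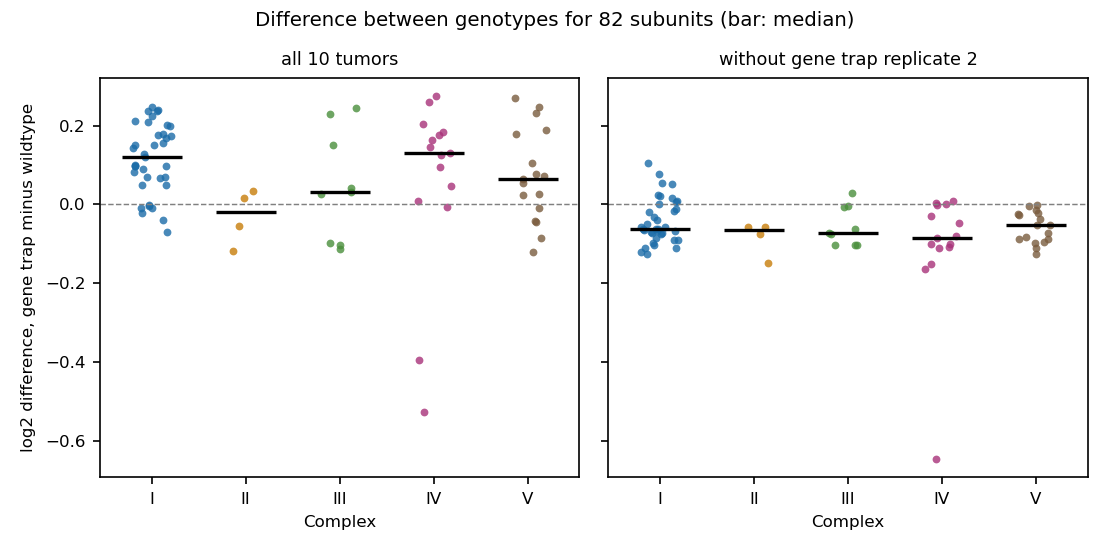
Log2 difference in signal between gene trap and wildtype tumors (y axis) for each of the 82 tested subunits, grouped by complex (x axis), with all 10 tumors (left) and without gene trap replicate 2 (right). Each point is 1 gene and the bar is the median of the complex, which lay between -0.02 and 0.13 with all tumors and between -0.09 and -0.05 without that tumor.

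Levels of many members moved together in some of the tumors. In every tumor each gene was set to its log2 difference from the mean of the 9 tumors other than gene trap replicate 2. These differences were averaged over the 82 members. The average was -0.09, 0.04, 0.09, 0.06 and 0.03 in wildtype replicates 1 to 5 and -0.14, 0.68, -0.13, 0.09 and 0.04 in gene trap replicates 1 to 5. Gene trap replicate 2 thus stood far above all others, and of the remaining 4 gene trap tumors replicates 1 and 3 lay below the wildtype range and replicates 4 and 5 within it. The group means were 0.03 ± 0.07 (SD, n = 5) in wildtype and 0.11 ± 0.33 (SD, n = 5) in gene trap tumors, and -0.03 ± 0.12 (SD, n = 4) without replicate 2.

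Apart from gene trap replicate 2, some tumors lay on 1 side of the middle with most members at once, and others were mixed. In gene trap replicate 1 only 1 of the 82 members was above the median that its own gene had over the 10 tumors, in gene trap replicate 3 it was 8 and in wildtype replicate 1 it was 9. In wildtype replicate 3 and gene trap replicate 4, by contrast, 68 and 65 members were above it. Wildtype replicates 2, 4 and 5 were between these, with 45, 53 and 35 members above it, as was gene trap replicate 5 with 52. The complexes differed in wildtype replicate 5, with averages of -0.02 for I, 0.09 for II and 0.21 for IV. The lowest value of 29 members was in gene trap replicate 1 and that of 36 in gene trap replicate 3. The same 3 tumors that were low for the members had the smallest summed signal of the luminal epithelial markers, at 77623 in wildtype replicate 1, 82057 in gene trap replicate 3 and 84668.5 in gene trap replicate 1, where the other 7 tumors lay between 88395 and 105116. Other protein-coding genes with transcripts under 1000 bases and a mean signal of at least 100 averaged -0.09, -0.10 and -0.11 in those 3 tumors. The part of either in the low member levels was not tested.

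**Figure D2:**
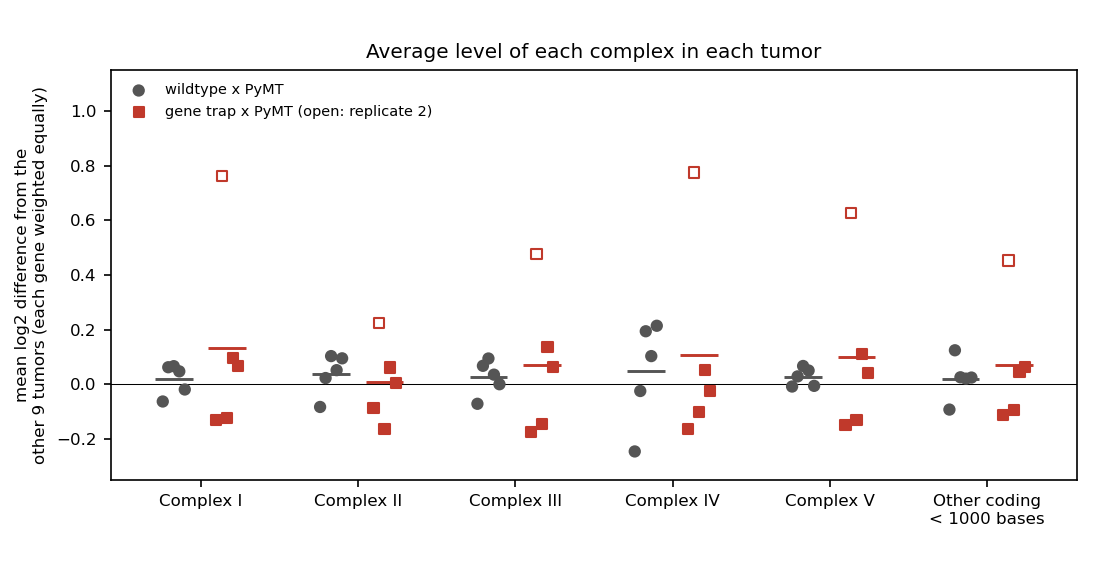
Average log2 difference of each tumor (y axis) for complexes I to V and, at the right, for other protein-coding genes with transcripts under 1000 bases. Differences are from the mean of the 9 tumors other than gene trap replicate 2, named the other 9 tumors on the axis. Circles are wildtype and squares gene trap tumors, bars are group means, and the open square, gene trap replicate 2, is the highest point in every column, at 0.22 (complex II) to 0.78 (complex IV).

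Gene trap replicate 2 had the highest signal of all 10 tumors for 65 of the 82 members, whereas the same was true of 22.4% of all genes tested and of 23.5% of the protein-coding ones. By complex, these were 35 of 37 members of I, 2 of 4 of II, 5 of 9 of III, 11 of 15 of IV and 12 of 17 of V. It was the lowest tumor for 3 members, *Uqcrc2*, *Atp5b* and *Cox6c2*, and for 21.8% of all genes. The signal was over 1.5 times the median of the other 9 tumors for 47 members and over 2 times for 23, against 10.3% and 3.44% of all genes, and the median ratio was 1.67. All members together made up 0.829% of the total signal in that tumor and 0.642% to 0.737% in the others.

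**Figure D3:**
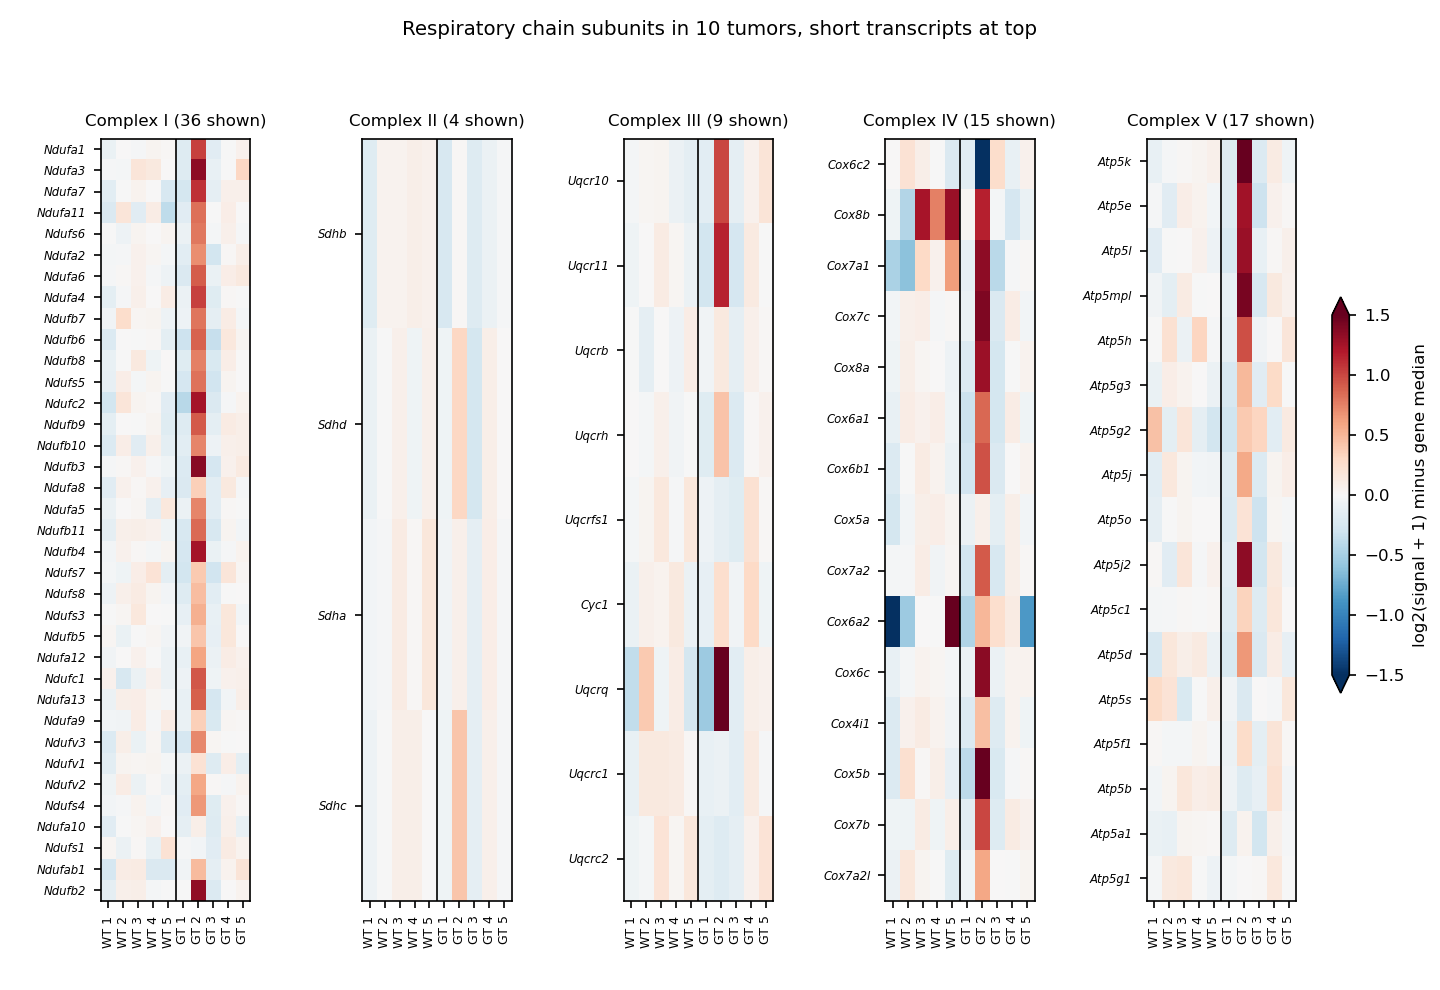
Signal of 81 of the 82 tested subunits (rows, in order of transcript length within each complex, shortest at the top) in 5 wildtype (WT) and 5 gene trap (GT) tumors (columns), as log2(signal + 1) minus the median of the gene. Red is above and blue below the median, colors end at 1.5, and the column of gene trap replicate 2 is red for most short transcripts, while the rows of *Cox6a2* and *Cox8b* vary most among the other tumors.

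The size of the excess in gene trap replicate 2 differed with the length of the transcript. Among members with a principal transcript under 600 bases the median ratio to the other 9 tumors was 2.09 (20 genes), from 600 to under 1000 bases it was 1.82 (28 genes), from 1000 to under 2000 bases 1.32 (26 genes) and from 2000 bases 1.07 (8 genes). Other protein-coding genes with a mean signal of at least 100 had median ratios of 1.71, 1.37, 1.13 and 0.987 in the same 4 ranges. Excess signal in that tumor was thus found in short transcripts in general, and the members were mostly short, with a median length of 849.5 bases against 2992 for all protein-coding genes tested. Exceptions were *Ndufb2*, at 2.54 times with an annotated length of 4371 bases, and *Uqcrb*, at 1.11 times with 535 bases, both singled out after their values were seen. When the dependence on length was removed from each tumor with a curve fitted to protein-coding genes, an alternative chosen after seeing the data, the median log2 difference over the members was 0.05 and 55 of 82 were above 0. The length of a principal transcript need not be that of the form made in these tumors.

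**Figure D4:**
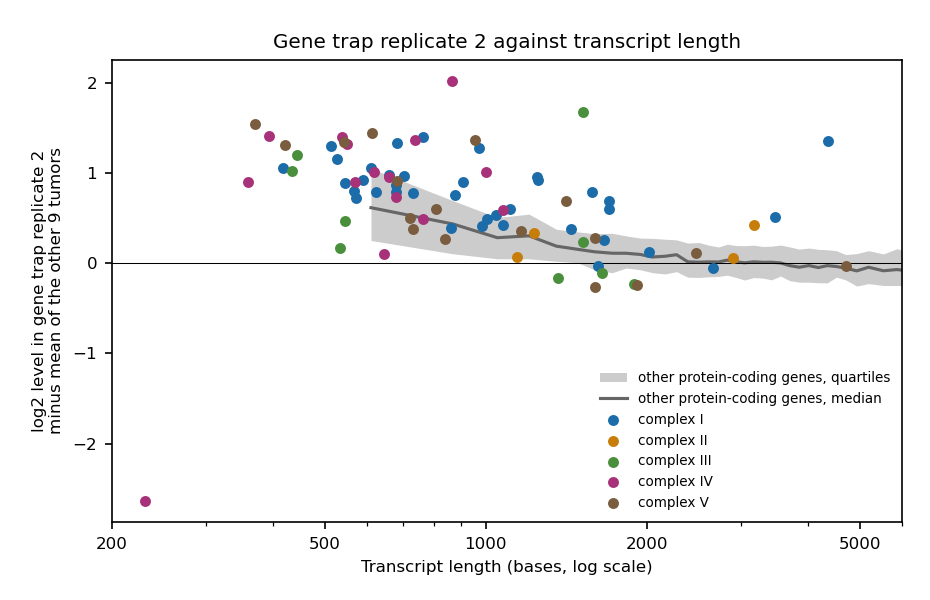
Log2 signal in gene trap replicate 2 minus the mean of the other 9 tumors (y axis) against transcript length in bases (x axis, log scale) for the 82 subunits, colored by complex. The line and grey band are the median and quartiles of other protein-coding genes in bins of length, and most short subunits lie on or above the band, with *Cox6c2* (a pseudogene) far below at the left.

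In complex I, no member passed the test and most short accessory subunits were raised in gene trap replicate 2 alone. The 7 core subunits that bind the flavin and iron-sulfur clusters and carry electrons had a median ratio of 1.34 in that tumor (range 0.962 to 1.51). For the 30 accessory subunits the median was 1.78 (range 1.07 to 2.61), with the highest value of all tumors for 30 of 30. The median transcript length was 1623 bases for the core and 747.5 bases for the accessory subunits. The part of length in their ratios was not tested. *Ndufs1*, the largest core subunit, was at 2817, 2593, 2785, 2556 and 3189 in wildtype replicates 1 to 5 and at 2722, 2679, 2455, 3004 and 2849.9 in gene trap replicates 1 to 5. The ranges were almost the same, and the log2 difference was -0.02 ± 0.08 (SE, limma unadjusted p = 0.779). *Ndufv1*, which holds the flavin that accepts electrons from NADH, lay between 2398 and 2757 in wildtype and 2346 and 3095 in gene trap tumors, with the highest value in gene trap replicate 2. *Ndufs7*, with the last iron-sulfur cluster of the path, was at 668, 656, 734, 792 and 619.5 in wildtype and 563, 896, 559, 775 and 701 in gene trap tumors, where replicate 2 was again the highest and the difference was -0.01 ± 0.13 (SE).

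*Ndufab1* (ENSMUSG00000030869), the mitochondrial acyl carrier protein, which also serves fatty acid synthesis in the organelle, had the smallest p of all members. Its signal was 861, 1105, 1113, 883 and 882 in wildtype replicates 1 to 5 and 989.6, 1425, 933, 1061 and 1175 in gene trap replicates 1 to 5. All gene trap tumors were above the 3 lowest wildtype tumors, but 2 wildtype tumors exceeded 3 of the gene trap tumors. The log2 difference was 0.20 ± 0.13 (SE, limma unadjusted p = 0.139, adjusted p = 0.9997), which is 14.7% higher in gene trap tumors, and 0.11 without gene trap replicate 2 (unadjusted p = 0.338). It was the largest positive difference of any member without that tumor. *Ndufa11*, an accessory subunit of the membrane arm, followed, between 1173 and 1723 in wildtype and between 1357 and 2709.8 in gene trap tumors (log2 difference 0.25 ± 0.17 SE, unadjusted p = 0.180), and 0.08 without gene trap replicate 2. *Ndufa4* had the highest signal per kilobase among the members named for complex I, at 6787. It was at 3424, 3766, 3992, 3802 and 4095 in wildtype and at 3578, 7767, 3346, 3834 and 3798 in gene trap tumors, so that replicate 2 was 2.04 times the median of the others while the remaining 4 gene trap tumors lay within or just below the wildtype range.

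Complex II, which is part of both the chain and the TCA cycle, had the smallest excess of the 5 complexes in gene trap replicate 2, with ratios of 1.03 to 1.34, and its transcripts were 1142 to 3171 bases long. *Sdhb* (ENSMUSG00000009863), the iron-sulfur subunit, was at 1536, 1799.5, 1808, 1852 and 1817 in wildtype replicates 1 to 5 and 1474, 1763, 1527, 1632 and 1719.6 in gene trap replicates 1 to 5. All wildtype tumors except replicate 1 lay above all gene trap tumors. The log2 difference was -0.12 ± 0.08 (SE, limma unadjusted p = 0.153; exact two-sided permutation test, p = 0.119), a change of -7.91%. Without wildtype replicate 1 it was -0.17 (unadjusted p = 0.0465, adjusted p = 0.9996), in a fit where 3.02% of all genes passed at that unadjusted threshold. Unadjusted p was also under 0.05 with a weight per tumor (0.0495) and with the length correction among protein-coding genes (0.0410), and in no fit did the adjusted p pass. *Sdha*, the flavoprotein that oxidizes succinate, had the highest level per kilobase of the 4, at 2438, against 2254 for *Sdhd*, 1482 for *Sdhb* and 790 for *Sdhc*. *Sdha* was between 6732 and 7819.7 in wildtype and between 6333 and 7452 in gene trap tumors, a log2 difference of -0.05 ± 0.07 (SE). The membrane anchors *Sdhc* and *Sdhd* differed by 0.04 and 0.02, and by -0.06 each without gene trap replicate 2, where they had their highest signal of 3250.4 and 3412.

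In complex III the catalytic and core subunits had lower ratios in gene trap replicate 2 than most of the small subunits. *Uqcrc1*, *Uqcrc2*, *Uqcrfs1* and *Cyc1* had ratios of 0.851 to 1.24, and the tumor was the highest for 0 of these 4. It was the highest for all 5 small subunits, *Uqcr10*, *Uqcr11*, *Uqcrb*, *Uqcrh* and *Uqcrq*, with ratios of 1.11 to 3.16. The ranges overlapped, since *Uqcrb* was at 1.11 and *Cyc1* at 1.24. Transcripts of the 4 were 1363 to 1896 bases long (median 1586.5), and those of the small subunits 434 to 1521 bases (median 535). The part of length in these ratios was not tested. *Uqcrc1*, a core protein facing the matrix, was at 4334, 5151, 5152, 5090.4 and 4730.0 in wildtype and 4315, 4385, 4171, 5134 and 4607 in gene trap tumors. Among gene trap tumors only replicate 4 lay among the 3 highest wildtype tumors, and the log2 difference was -0.11 ± 0.08 (SE, limma unadjusted p = 0.168), or -0.10 without gene trap replicate 2. *Uqcrfs1*, the Rieske iron-sulfur protein, lay between 2720.4 and 3129 in wildtype and 2446 and 3239 in gene trap tumors, with both the highest and the 3 lowest values among the gene trap tumors (log2 difference -0.10, unadjusted p = 0.274). *Cyc1*, the cytochrome c1 subunit, differed by 0.04 ± 0.10 (SE) and by -0.01 without gene trap replicate 2. *Uqcr11*, with the highest level per kilobase in the complex (6704), was at 2591, 2735, 2957, 2763 and 2542 in wildtype and 2235, 6060.3, 2276, 2985 and 2691 in gene trap tumors, 2.25 times the median of the others in replicate 2. *Uqcr10* showed the same pattern, at 3803 in gene trap replicate 2 and 1699 to 2177 in the other 9 tumors (log2 difference 0.23, unadjusted p = 0.233).

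In complex IV, the subunits expressed in all tissues were close between genotypes and high in gene trap replicate 2. *Cox4i1*, the regulatory subunit with the highest level per kilobase of the complex (11189), was at 7337, 8871, 9199, 8806 and 8193 in wildtype replicates 1 to 5 and 7343, 11558, 7423, 8769.6 and 8099 in gene trap replicates 1 to 5. The log2 difference of 0.01 ± 0.12 (SE, limma unadjusted p = 0.935) became -0.10 without gene trap replicate 2. *Cox5b* (ENSMUSG00000061518), which binds zinc on the matrix side, had the largest excess of all members. It was at 1619, 2206, 1895, 1988 and 1708 in wildtype and 1415, 7241, 1586, 1842 and 1889 in gene trap tumors, so that gene trap replicate 2 was 3.93 times the median of the others while the other 4 gene trap tumors lay below the wildtype median of 1895. Its log2 difference was 0.26 ± 0.36 (SE) with that tumor and -0.16 without it (unadjusted p = 0.169). *Cox5a*, another subunit of the matrix side, was at 1236 in the same tumor, within the range of 972 to 1258 of the others. *Cox7a2l*, a factor that joins complexes III and IV into supercomplexes, was at 7746 in gene trap replicate 2 and 4550 to 5833 in the others, with a difference of 0.13 ± 0.12 (SE) and 0.01 without it.

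*Cox6c* and its pseudogene *Cox6c2* went opposite ways in gene trap replicate 2 and had the highest and the lowest log2 difference of all members. *Cox6c* was at 3241, 3433, 3642, 3589.7 and 3429 in wildtype and 3314, 8935, 3296, 3653 and 3641 in gene trap tumors (log2 difference 0.28 ± 0.23 SE, limma unadjusted p = 0.255). *Cox6c2* (ENSMUSG00000066491) was at 109, 127, 115, 108 and 93.3 in wildtype and 97.3, 16.9, 131, 101 and 114 in gene trap tumors (log2 difference -0.53 ± 0.45 SE, unadjusted p = 0.267). Without gene trap replicate 2 both differences were 0.00. The reads of a gene and its near-identical copy can be split between them in counting, so that both values are uncertain. Of the 5 processed pseudogenes left out by the rule, *Uqcrh-ps1*, *Atp5l-ps1*, *Atp5l2-ps* and *Atp5c1-ps* were also lowest in that tumor, for example 43.3 against 117 to 148 for *Uqcrh-ps1*, and *Atp5k-ps2* was highest (204 against 127 to 168).

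Several subunits of complex IV exist in forms that are typical of muscle, fat, lung or testis, and these were low in the tumors. Per kilobase, the signal of the heart and muscle form *Cox6a2* was 0.183% to 2.65% of that of the common form *Cox6a1*. That of *Cox7a1* was 6.57% to 15.1% of that of *Cox7a2*, and that of *Cox8b* 2.30% to 8.65% of that of *Cox8a*. The log2 ratio of the forms did not pass an exact two-sided permutation test in any of the 3 pairs that could be formed. By that exact test, gene trap minus wildtype was 0.10 for *Cox6a2* to *Cox6a1* (p = 0.889, Benjamini-Hochberg adjusted over the 3 pairs 0.889), 0.09 for *Cox7a1* to *Cox7a2* (p = 0.714, adjusted 0.889) and -0.57 for *Cox8b* to *Cox8a* (p = 0.167, adjusted 0.5). Leaving out each tumor in turn gave -0.84 to -0.37 for the last. These ends were without wildtype replicate 2 (exact permutation p = 0.0317) and without wildtype replicate 5 (exact permutation p = 0.333). Neither p was adjusted over the pairs.

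*Cox6a2* varied widely between tumors, and its lowest and highest tumors were also those of skeletal muscle markers. Its signal was 6.80, 23.3, 34.5, 34.3 and 102 in wildtype replicates 1 to 5 and 24.8, 48.9, 41.1, 37.5 and 18.5 in gene trap replicates 1 to 5. The lowest and the highest tumor were both wildtype. Of 8 muscle markers 6 were in the table, and their summed signal was 814, 2941, 3338, 3798 and 13078 in wildtype and 2089, 3655, 4623, 5911 and 2323 in gene trap tumors, so that wildtype replicates 1 and 5 were again the lowest and the highest. *Acta1*, the skeletal muscle actin, was at 328 and 4520.4 in these tumors. The part of muscle tissue in the *Cox6a2* signal was not tested.

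*Cox8b* (ENSMUSG00000025488), a form known from muscle and brown fat, was at 63.0, 48.5, 157, 112 and 163 in wildtype and 67.1, 149, 64.7, 55.0 and 61.2 in gene trap tumors. The 3 highest tumors were replicates 5 and 3 of wildtype and replicate 2 of gene trap, and the log2 difference was -0.40 ± 0.37 (SE, limma unadjusted p = 0.309), or -0.65 without that gene trap tumor (unadjusted p = 0.0806). The white adipocyte markers *Adipoq*, *Fabp4* and *Lipe*, 3 of 6 that were in the table, summed to 1619, 2049.6, 5266, 2499 and 4941 in wildtype and 2859, 3737, 1949, 2635 and 999.4 in gene trap tumors. The same 3 tumors, 2 of them wildtype, were the highest there too. Of 4 brown fat markers only *Cidea* and *Dio2* were in the table. They summed to 265, 302, 488, 267 and 623 in wildtype and 455, 404, 320, 335 and 281 in gene trap tumors. There the 3 highest were wildtype replicates 5 and 3 and gene trap replicate 1, not gene trap replicate 2. For the muscle markers, gene trap replicate 4 came next after wildtype replicate 5 (5911), although *Cox8b* was only at 55.0 in it. The part of fat tissue was not tested. *Cox7a1*, the muscle form of *Cox7a2*, was at 89.7, 81.0, 153, 130.3 and 193 in wildtype and 115, 318, 94.0, 123 and 127 in gene trap tumors, highest in gene trap replicate 2, with a log2 difference of 0.18 ± 0.33 (SE).

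The 2 members below the mean signal of 10 were *Cox4i2* and *Cox6b2*. *Cox4i2* (ENSMUSG00000009876), a form of *Cox4i1* known from lung and from oxygen-sensing and pericyte cells, was at 9.85, 9.96, 12.97, 13.8 and 10.7 in wildtype replicates 1 to 5 and 7.09, 7.82, 8.31, 9.64 and 5.82 in gene trap replicates 1 to 5. The groups did not overlap, although gene trap replicate 4 and wildtype replicate 1 lay close together. This is 1 of 84 members without overlap in the lower direction and 0 in the higher one, against 0.271% and 0.267% of all 23609 genes when no filter was applied. The log2 difference was -0.52 ± 0.23 (SE), a change of -30.1% (limma without the filter, unadjusted p = 0.0450, adjusted p = 0.9998). In that fit 1 of 84 members was lower and 0 higher at an unadjusted p under 0.05, against 1.08% and 1.35% of all genes. The exact two-sided permutation p of 0.00794 is the smallest that 5 against 5 tumors allow, and it was not adjusted for the number of genes. Leaving out each tumor gave differences of -0.59 to -0.43. The number of reads behind such low signal is unknown. The pericyte markers *Rgs5*, *Cspg4*, *Kcnj8* and *Pdgfrb* summed to 2386 to 5214 in wildtype and 2474 to 4550 in gene trap tumors, with overlap of the groups. The part of pericytes in the *Cox4i2* signal was not tested. *Cox6b2*, the testis form of *Cox6b1*, was between 6.22 and 12.8 in wildtype and between 3.26 and 17.05 in gene trap tumors, a log2 difference of 0.01 ± 0.38 (SE).

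**Figure D5:**
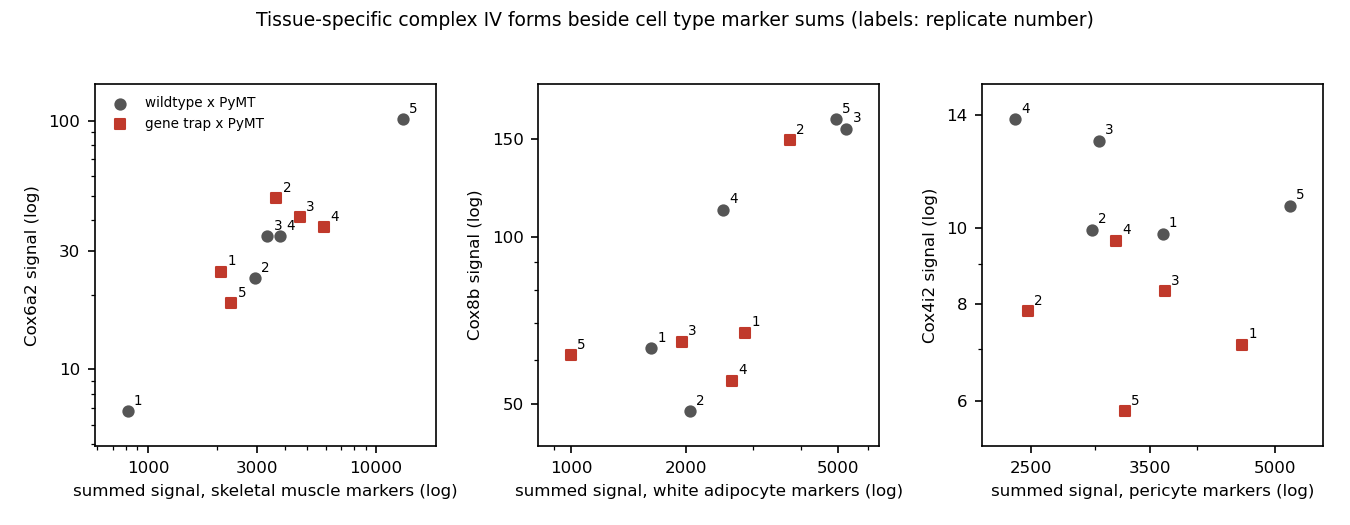
Signal of *Cox6a2*, *Cox8b* and *Cox4i2* (y axes) against the summed signal of skeletal muscle, white adipocyte and pericyte markers (x axes), all on log scales, with 1 point per tumor labelled by its replicate number (circles wildtype, squares gene trap). Wildtype replicates 1 and 5 are at the ends for *Cox6a2* and muscle, while for *Cox4i2* the 5 gene trap tumors lie below all wildtype tumors.

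The common forms *Cox6a1*, *Cox6b1*, *Cox7a2* and *Cox8a* had log2 differences of 0.05, 0.13, 0.10 and 0.18, and of -0.15, -0.08, -0.11 and -0.10 without gene trap replicate 2. In that tumor each was 1.89 to 2.44 times the median of the others. *Cox6a1*, whose promoter held 3 of the matches shown above, was at 3117, 3628, 3512, 3616 and 3222 in wildtype and 2701, 6109.7, 2802, 3636 and 3237 in gene trap tumors. Gene trap replicates 1 and 3 were below all wildtype tumors.

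In complex V the alpha and beta subunits of the catalytic head had ratios of 1.05 and 0.850 in gene trap replicate 2, below those of the small membrane subunits. Their transcripts were 2471 and 1916 bases long. *Atp5b* (ENSMUSG00000025393), the beta subunit that makes ATP, was the member with the highest signal, at 14358 per kilobase. It was at 26383, 27742, 30392, 29103 and 29475 in wildtype replicates 1 to 5 and 25683, 23589, 24856, 31576 and 26301 in gene trap replicates 1 to 5. Gene trap replicate 4 was the highest of all tumors and the other 4 gene trap tumors were below all wildtype tumors (log2 difference -0.12 ± 0.09 SE, limma unadjusted p = 0.208). Without gene trap replicate 4 it was -0.19 (unadjusted p = 0.0397, adjusted p = 0.979), where 3.28% of all genes passed at that unadjusted threshold, and without gene trap replicate 2 it was -0.08. *Atp5a1*, the alpha subunit, lay between 24501 and 27218 in wildtype and between 21801 and 27969 in gene trap tumors, a difference of -0.04 ± 0.09 (SE).

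Other parts of the head, *Atp5c1*, *Atp5d* and *Atp5e* (gamma, delta and epsilon), had ratios of 1.26, 1.67 and 2.42 in gene trap replicate 2. In the annotation 3 genes encode the same mature c subunit of the membrane ring, and of these *Atp5g3* was the highest per kilobase at 5412, with *Atp5g1* at 491 and *Atp5g2* at 66.5. The small membrane subunits *Atp5k*, *Atp5l*, *Atp5j2* and *Atp5mpl* were 2.47 to 2.89 times the median of the others, with transcripts of 371 to 955 bases. *Atp5e* of the head, with 421 bases, was close to them. Other subunits lay within the range of the head, with *Atp5h* at 1.96, *Atp5j* at 1.52, *Atp5g3* at 1.41 and *Atp5f1* at 1.23. The part of length in these ratios was not tested. *Atp5mpl* had the largest positive difference in the complex, at 742, 695, 839, 763 and 773 in wildtype and 713, 2059, 649.9, 849.9 and 801 in gene trap tumors (log2 difference 0.27 ± 0.25 SE, limma unadjusted p = 0.308), and -0.02 without replicate 2. *Atpif1*, the inhibitor that stops ATP hydrolysis by the complex and that was named by its role although its symbol is outside the rule, was at 4937 in gene trap replicate 2 and 2612 to 3186 in the others (log2 difference 0.04 ± 0.15 SE, unadjusted p = 0.820). *Usmg5*, the other small subunit outside the rule and chosen after its values were seen, was at 3580.2 in that tumor and 909.6 to 1106 in the others.

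Genes that work with the chain were examined from fixed lists, and none passed limma's adjusted test, nor an unadjusted p under 0.05 with all 10 tumors. Complex I assembly factors were above 0 in 14 of 17 genes (median log2 difference 0.09), those of complex II in 2 of 4 (0.03), of complex III in 3 of 6 (0.00), of complex IV in 18 of 21 (0.11) and of complex V in 3 of 3 (0.02). In gene trap replicate 2 the signal of complex IV assembly factors was 1.47 times the median of the others, and that tumor was the highest for 16 of 21, for example 2217 against 947 to 1181 for *Cox17*, the copper chaperone. Without that tumor, 9 of 17 assembly factors of complex I (median -0.02), 2 of 4 of II, 4 of 6 of III (-0.03), 11 of 21 of IV (-0.02) and 2 of 3 of V were below 0. At an unadjusted p under 0.05, 1 of the 102 tested genes of these and the following lists was then lower and 0 were higher, against 0.884% and 1.01% of all genes. The gene was *Uqcc3*, a complex III assembly factor (log2 difference -0.18, limma unadjusted p = 0.0472). Cytochrome c and the genes of coenzyme Q synthesis were above 0 in 6 of 12 and, without gene trap replicate 2, in 3 of 12, and *Cycs*, the mobile carrier to complex IV, differed by 0.02 ± 0.12 (SE).

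Of the 13 subunits encoded by mitochondrial DNA, 11 were above 0 with a median of 0.07, and 13 of 13 were below 0 without gene trap replicate 2 (median -0.05). That tumor was the highest for 11 of 13, with a median ratio of 1.52, as for the nuclear members. *mt-Atp6* and *mt-Atp8*, which share a transcript, were the exceptions, with 11877 and 3419 in that tumor inside the range of the others (10321 to 13989.5 and 2568 to 3618). TCA cycle enzymes did not share the excess. Their median ratio was 0.982 in gene trap replicate 2, where *Cs*, citrate synthase, was at 4423 and the others at 4496 to 5342, and 4 of 12 were above 0. Regulators of mitochondrial genes had a median ratio of 0.966 in that tumor and a median log2 difference of 0.02, with 10 of 14 above 0. Members with transcripts of 2000 bases or more also had a low median ratio there, at 1.07, and other protein-coding genes of that length were at 0.987. The part of transcript length in the ratios of the TCA cycle and regulator lists was not tested. *Nrf1*, the factor whose binding sequence was searched, was at 1161 to 1407 in wildtype and 1270.0 to 1398 in gene trap tumors. The ERR factor *Esrra* was at 1027 to 1253 and 881 to 1496, and the coactivator *Ppargc1a* was low, at 131 to 230.4 and 128 to 174.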

How the data were processed

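The members and gene lists were chosen with earlier results of these data known. The authors deposited normalized estimated counts per gene, treated here as signal. The submitters' processing notes name Partek, STAR 2.7.8a, DESeq2 and the build mm39, and the counter and annotation of the mouse tumors are not given in the sources used here. Each column's median ratio to the geometric mean was 1.005 to 1.006, with fractional values and 0 zeros, so reads and depth could not be recovered, and a count test was replaced by limma. Of the 16 columns, 10 matched a tumor's label and 6 matched none and were not used. Symbols, gene types and transcript lengths came from GENCODE mouse release 21 (a symbol for 22899 of 23609 IDs), promoter sequences from RefSeq (GRCm38.p6).

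Genes with a mean of at least 10 were fitted on log2(signal + 1) with limma 3.58.1 (R 4.3.3), with a mean-variance trend, only the genotype in the model and p adjusted by Benjamini-Hochberg over all genes. Single values were compared by exact permutation over 252 arrangements. The calculations were tested on simulated tables. Genes were named by role, as tissue-specific forms, by the 2 smallest p in complexes I, III, IV and V, by the 3 highest and 3 lowest differences and by the highest level per kilobase in each complex. One gene is counted with the others but not reported here. Pericyte, muscle, fat and other marker lists and other genes named beside these rules were chosen with values known. Figures were drawn with matplotlib 3.10.9 (Python 3.11.15).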

Additional observations from a re-analysis of the deposited data

Results flagged for a closer look

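Among the named genes and the averages of each complex, 90 groups of 5 tumors were examined for a tumor whose gap to its nearest neighbor exceeded Dixon's 95% critical value for 5 samples. There were 19 such groups, where about 1 in 20, or 4.5, would be flagged by chance, and 18 of them concerned gene trap replicate 2. The genes share that tumor, so these are not independent.

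In gene trap replicate 2, short subunits of complex IV stood apart from the other 4 gene trap tumors. *Cox5b* was at 7241 (others 1415 to 1889), *Cox6c* at 8935 (3296 to 3653), *Cox8a* at 7378 (2541 to 3163), *Cox6b1* at 10068 (4283 to 5397), *Cox6a1* at 6109.7 (2701 to 3636) and *Cox7a2* at 3973 (1734 to 2231). *Cox7a2l* was at 7746 (4938 to 5335), *Cox7a1* at 318 (94.0 to 127) and *Cox8b* at 149 (55.0 to 67.1).

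Members of the other complexes and the inhibitor of ATP synthase stood apart in the same tumor. *Ndufa4* was at 7767 (3346 to 3834), *Ndufa11* at 2710 (1357 to 1637), *Uqcr10* at 3803 (1699 to 2177), *Uqcr11* at 6060 (2235 to 2985), *Atp5mpl* at 2059 (650 to 850) and *Atpif1* at 4937 (2612 to 2956). Average log2 differences were taken from the mean of the 9 tumors other than gene trap replicate 2. In that replicate the average was 0.68 over all members (other gene trap tumors -0.14 to 0.09). It was 0.76 over complex I (-0.13 to 0.10) and 0.78 over complex IV (-0.16 to 0.05).

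The remaining value was that of *Sdhb* in wildtype replicate 1, at 1536 where the other wildtype tumors lay between 1799.5 and 1852.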

How the results depend on the processing

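Depth is unknown and 5 tumors per group limit precision: the differences of the 82 tested members were within the spread between tumors, gene trap replicate 2 decided the sign of most of them, and *Cox4i2* and *Cox6b2* lay below the filter. No member passed the adjusted test in any fit, and 0 of all genes did (unadjusted 305 to 692 genes). The number of members lower at an unadjusted p under 0.05 was 0 with all 10 tumors, 1 without the filter (*Cox4i2*), 1 with a weight per tumor and 1 with length correction among protein-coding genes (*Sdhb* in both), and 0 to 1 when each tumor was left out. The number higher stayed 0. The median log2 difference over the members was 0.10, and -0.06 to 0.15 when each tumor was left out, where it was below 0 only without gene trap replicate 2. It was -0.05 with a weight per tumor, 0.07 with equal column totals, 0.10 after quantile normalization, 0.15 with length correction over all genes and 0.05 with that among protein-coding genes. By complex, leaving out each tumor gave -0.06 to 0.18 for I, -0.07 to 0.03 for II, -0.07 to 0.08 for III, -0.09 to 0.23 for IV and -0.05 to 0.14 for V. With a weight per tumor the medians were -0.03 for I, -0.07 for II, -0.07 for III, -0.06 for IV and -0.04 for V, below 0 in all 5. Complex III also turned to -0.05 with length correction among protein-coding genes. The cause of these shifts was not tested.

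Tumors with the same replicate number came from different animals and did not vary together (correlations of -0.16 to 0.15), so the numbers do not pair them. With the replicate block the median over the members stayed 0.10, 0 genes passed the adjusted test and 426 instead of 479 passed unadjusted, while *Cox4i2* gave an exact p of 0.0625, the smallest that 5 pairs allow. The ratio of *Cox6a2* to *Cox6a1* was -0.0065 with a pseudocount of 10, and -0.35 to 0.57 when each tumor was left out. That of *Cox7a1* to *Cox7a2* was then -0.054 to 0.24 and that of *Cox8b* to *Cox8a* -0.84 to -0.37.

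Signs of single named genes turned under some alternatives, none of them past the adjusted test. With a weight per tumor the log2 difference was -0.054 for *Sdhc*, -0.058 for *Sdhd*, -0.023 for *Cyc1*, -0.10 for *Cox4i1*, -0.089 for *Cox5b*, -0.10 for *Atpif1*, -0.13 for *Cox6a1*, -0.064 for *Cox6b1*, -0.090 for *Cox7a1*, -0.087 for *Cox7a2*, -0.054 for *Cox8a*, -0.032 for *Ndufa4* and -0.078 for *Uqcr11*. Length correction among protein-coding genes gave -0.0054 for *Sdhd*, -0.045 for *Cox4i1*, -0.044 for *Atpif1* and -0.028 for *Cox6a1*, and that over all genes 0.00096 for *Ndufs7* and 0.089 for *Cox5a*. Equal column totals gave -0.010 for *Sdhd* and -0.017 for *Cox4i1*, and quantile normalization -0.0017 for *Cox4i1*. When each tumor was left out, the range was -0.057 to 0.027 for *Ndufs1*, -0.067 to 0.033 for *Ndufv1*, -0.10 to 0.066 for *Ndufs7*, -0.056 to 0.083 for *Sdhc*, -0.057 to 0.086 for *Sdhd*, -0.017 to 0.089 for *Cyc1*, -0.10 to 0.063 for *Cox4i1*, -0.068 to 0.025 for *Cox5a*, -0.16 to 0.43 for *Cox5b*, -0.079 to 0.011 for *Atp5a1*, -0.13 to 0.098 for *Atpif1*, -0.15 to 0.14 for *Cox6a1*, -0.34 to 0.59 for *Cox6a2*, -0.080 to 0.23 for *Cox6b1*, -0.11 to 0.35 for *Cox7a1*, -0.11 to 0.19 for *Cox7a2*, -0.10 to 0.28 for *Cox8a*, -0.022 to 0.39 for *Atp5mpl*, -0.068 to 0.24 for *Ndufa4* and -0.10 to 0.26 for *Uqcr11*.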
